A study of Mus musculus with 6 samples.

Results

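The IFIT genes and core interferon-stimulated genes were followed here in mouse heart RNA. The set was given by name as Ifit1, Ifit2, Ifit3, Ifi44, Rsad2, Isg15, Usp18, Oasl2 and Irf7, and rows were taken where the gene symbol in the authors' expression table equalled one of these names. All 9 names were found among 24525 gene rows, and all 9 passed the filter on low values described below. RNA came from whole heart tissue of mice aged 3 to 6 months and was sequenced in 6 strand-specific paired-end libraries. There were 3 libraries labelled DKO (replicates 7, 8 and 9) and 3 labelled WT (replicates 4, 5 and 6). The DKO mice had the genotype Mbnl1-/-; Mbnl2cond/cond; Myh6-Cre+/-, that is, no functional Mbnl1 allele in any cell, and conditional Mbnl2 alleles recombined by a cardiomyocyte Cre under the Myh6 promoter. Other cells of a DKO heart therefore lacked Mbnl1 and kept Mbnl2. The WT libraries carry no further genotype. Not given in the sources used here were their Cre and floxed alleles and the strain and sex of any mouse. MBNL proteins bind RNA and steer its splicing, and expanded repeat RNA ties them up in myotonic dystrophy.

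Type I interferons are secreted after cells sense foreign or misplaced nucleic acid. They bind the IFNAR receptor, and JAK kinases then activate STAT transcription factors, which join IRF9 in a complex that binds interferon-stimulated response elements in the promoters of target genes. The 9 genes are among the most widely induced targets: IRF7 is a transcription factor that amplifies interferon production, IFIT proteins bind viral RNA or restrain its translation, viperin (Rsad2) and OASL proteins are antiviral effectors, and ISG15 is a ubiquitin-like protein that is joined to other proteins and removed again by USP18. Most cell types of the heart can express them, so RNA of whole tissue does not say which cells do.

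Promoter sequences are shown for 4 of the genes because they hold the core of the response element, and because Rsad2, which holds it as well, behaved differently from the others in the libraries. RefSeq promoter windows of build GRCm38.p6, reaching from 250 bases before to 50 bases after an annotated transcription start, were at hand for 8 of the 9 genes (9 windows, with 2 for Ifit2), and Usp18 was not matched. The motif searched was TTTC, then any 2 bases, then TTTC again, on either strand, and overlapping matches were counted separately. Windows of Ifit1 (chr19:34640639-34640938, plus strand), Ifit3 (chr19:34583279-34583578, plus strand), Isg15 (chr4:156200769-156201068, minus strand) and Rsad2 (chr12:26456403-26456702, minus strand) held 2, 2, 3 and 1 matches. Sequences run 5′ to 3′ along the gene, and capitals mark the matches.
Ifit1 promoter window: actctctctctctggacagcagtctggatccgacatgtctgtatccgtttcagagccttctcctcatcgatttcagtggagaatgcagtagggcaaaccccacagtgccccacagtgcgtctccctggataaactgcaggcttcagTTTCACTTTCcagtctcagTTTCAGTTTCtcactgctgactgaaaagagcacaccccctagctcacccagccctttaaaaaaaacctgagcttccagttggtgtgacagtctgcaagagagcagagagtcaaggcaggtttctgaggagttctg
Ifit3 promoter window: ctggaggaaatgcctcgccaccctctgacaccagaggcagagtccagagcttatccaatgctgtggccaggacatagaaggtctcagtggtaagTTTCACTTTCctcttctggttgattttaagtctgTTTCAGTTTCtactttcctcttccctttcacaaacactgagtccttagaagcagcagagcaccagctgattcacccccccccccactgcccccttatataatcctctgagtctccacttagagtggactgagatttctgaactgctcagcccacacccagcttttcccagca
Isg15 promoter window: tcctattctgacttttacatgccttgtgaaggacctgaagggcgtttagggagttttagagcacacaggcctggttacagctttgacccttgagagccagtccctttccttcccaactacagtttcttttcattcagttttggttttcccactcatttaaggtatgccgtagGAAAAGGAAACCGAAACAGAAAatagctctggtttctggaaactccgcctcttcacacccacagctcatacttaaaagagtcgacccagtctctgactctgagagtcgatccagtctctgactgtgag
Rsad2 promoter window: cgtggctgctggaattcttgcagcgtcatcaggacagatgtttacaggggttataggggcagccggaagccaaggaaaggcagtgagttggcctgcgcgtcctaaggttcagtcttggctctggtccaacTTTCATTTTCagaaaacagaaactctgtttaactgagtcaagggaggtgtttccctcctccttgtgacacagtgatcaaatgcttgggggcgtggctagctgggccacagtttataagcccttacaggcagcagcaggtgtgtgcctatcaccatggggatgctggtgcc
In Ifit1 the matches began 104 and 85 bases before the start, in Ifit3 156 and 122 bases before it, and in Rsad2 120 bases before it. In Isg15 the 3 matches overlapped and began 78, 72 and 66 bases before the start. Of all 32851 windows of this length in the RefSeq table, 3.44% held a match, and 3.99% of 27025 genes did in any of their windows. The windows of Ifit2, Ifi44, Oasl2 and Irf7 held no match. A match is a run of letters and was not tested as a binding site.

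Expression was given as TPM, a level scaled to transcript length and to a fixed total for each library. Library totals lay between 999963 and 999991 TPM, and 14084 to 14623 genes reached 1 TPM. TPM keeps no read counts, so sequencing depth is unknown here and counting error has no interval. Cardiomyocyte markers were abundant in every library, with 38444 to 41041 TPM summed over 6 genes in DKO and 42829 to 45652 TPM in WT. Gene-level Mbnl1 was 102, 108 and 107 TPM in DKO 7, 8 and 9, against 161, 159.8 and 145 TPM in WT 4, 5 and 6. Mbnl2 was 227, 239.7 and 245 TPM in DKO against 189, 168 and 149 TPM in WT, and so was higher in the libraries labelled DKO. Gene-level sums may hold RNA from outside the deleted part, and Mbnl2 RNA also comes from cells without Cre, so neither value checks the deletion.

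The DKO libraries are not alike in other respects. Library 7 is DKO by its title and source name but WT by its genotype tag, and it is placed in DKO here. Xist was 152 and 174 TPM in DKO 7 and DKO 8, and Y-linked transcripts (Ddx3y, Uty, Kdm5d and Eif2s3y together) were 0.217 and 0.355 TPM there. In DKO 9 and WT 4, 5 and 6 the Y-linked sum was 179, 163, 174 and 179 TPM, with Xist at 0.401 TPM or less. The beta-globin row Hbb-bs was 1689.7, 1.15 and 0.892 TPM in DKO 7, 8 and 9, against 1436, 14182.5 and 5293 TPM in WT 4, 5 and 6. Summed over 5 erythroid genes, Hbb-bs among them, the level was 6763, 1781 and 2183 TPM in DKO 7, 8 and 9. In WT 4, 5 and 6 the sum was 6042, 38458 and 14176.5 TPM. Erythroid RNA was thus present in DKO 8 and DKO 9 as well. The labels do not tie the libraries to separate animals. DKO 7, 8 and 9 each differed from the others in these transcripts, as repeats of the same RNA would not. The WT libraries all had Y-linked transcripts, and their Hbb-bs ran from 1436 to 14182.5 TPM. The p-values here also rest on the spread among the WT libraries. Whether that spread lies between animals or is technical is not given by the labels and was not tested. The 9 genes are therefore also given without single libraries and within the libraries that share a sex-linked or beta-globin pattern.

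All genes that reached 1 TPM in 3 or more libraries were compared between DKO and WT with limma on log2(TPM + 1), a linear model fitted over all 14541 such genes with Benjamini-Hochberg (BH) adjustment over all of them and a threshold of 0.05. Log2 differences are DKO minus WT on this scale, on which low genes appear to change less than they do, and ratios are of mean TPM. Of the 9 genes, 8 rose in DKO hearts and 0 fell, and Rsad2 was not called. Over all genes tested, 10.7% were called in either direction, 6.51% as higher and 4.22% as lower, and 27.0% had an unadjusted p under 0.05 (limma). The median log2 difference of the 9 genes was 1.16, against 0.03 over all genes tested. For the same 8 genes the 3 DKO values all lay above the 3 WT values, which held for 19.1% of all genes tested. An exact two-sided permutation test of single genes gave p = 0.1 for each of these 8, the smallest value that 3 against 3 libraries allow, and p = 0.7 for Rsad2. The set was chosen with results of these data known, so its counts describe it and do not test it. In whole tissue, more cells of a type that expresses these genes and more RNA per cell cannot be told apart.

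**Figure D1:**
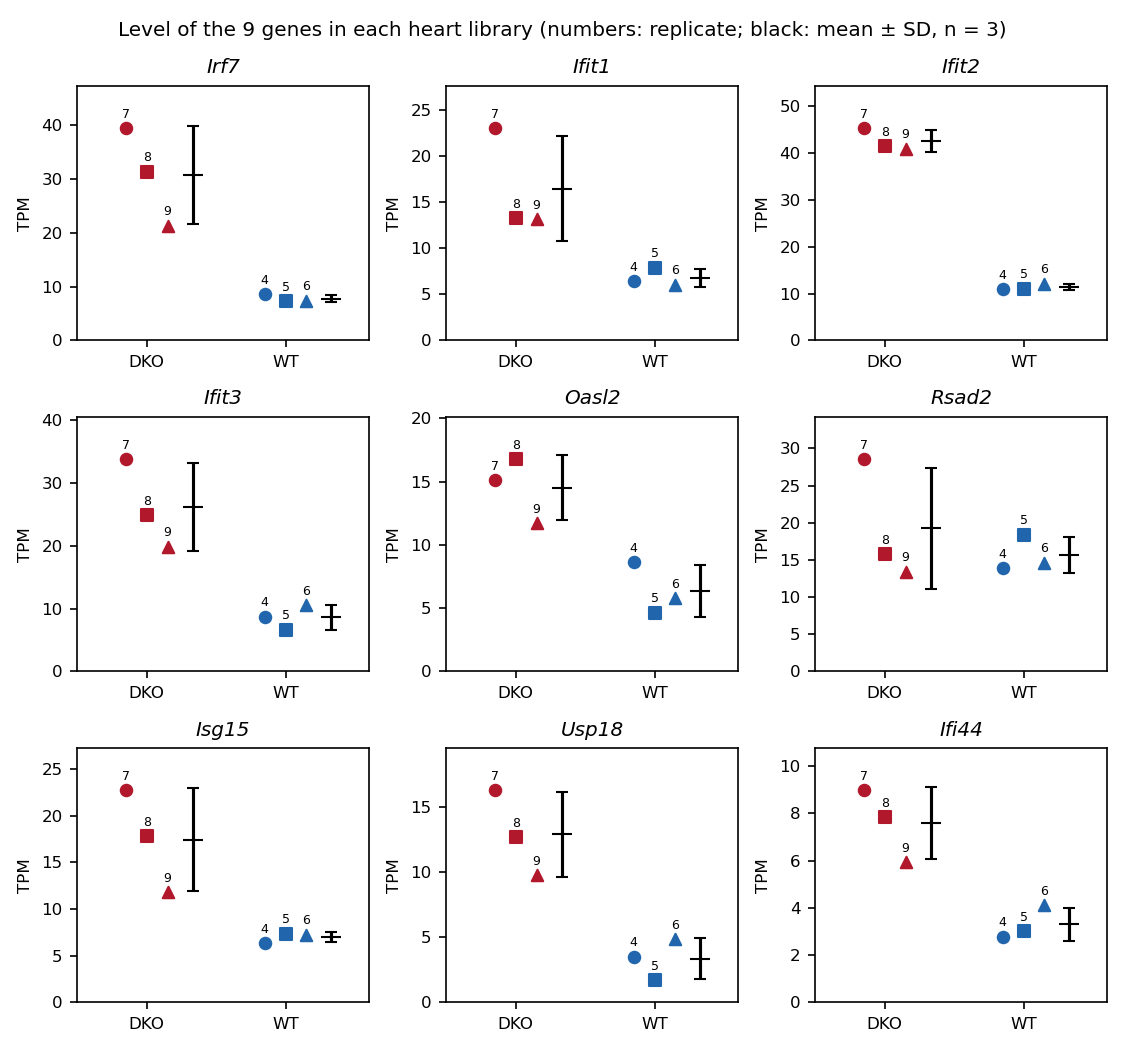
Level in TPM (vertical axes, from 0) of each of the 9 genes in the 3 DKO libraries (red, left) and 3 WT libraries (blue, right), with replicate numbers beside the points and mean ± SD (n = 3) in black. The DKO points lie above all WT points in 8 panels, and in the Rsad2 panel DKO 7 alone lies above the WT points.

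Irf7, the interferon regulatory factor that drives interferon genes, lies on chromosome 7 (141263183 to 141266499, GRCm38). Its level was 39.4, 31.3 and 21.3 TPM in DKO 7, 8 and 9, against 8.62, 7.31 and 7.41 TPM in WT 4, 5 and 6. The lowest DKO library was thus more than any WT library, and the DKO libraries varied more among themselves than the WT libraries did, with 30.7 ± 9.05 TPM in DKO and 7.78 ± 0.727 TPM in WT (SD, n = 3 each). Irf7 had the largest ratio of the 9, 3.94, with a log2 difference of 1.81 (with SE 0.22; limma with BH, adjusted p = 0.00625). It stayed called whichever library was left out, with adjusted p (limma with BH) from 0.00596 to 0.0303. Exons of Irf7 overlap exons of Phrf1 on the opposite strand. The libraries keep strand, but the strand setting of the quantification was not given in the sources used here. Phrf1 was 16.9 ± 1.33 TPM in DKO and 18.0 ± 1.15 TPM in WT (SD, n = 3 each) and was not called (limma with BH, adjusted p = 0.676).

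The 3 IFIT genes lie side by side on chromosome 19, Ifit2 at 34550550 to 34576534, Ifit3 at 34583119 to 34588982 and Ifit1 at 34640889 to 34650009 (GRCm38), and encode RNA-binding proteins built of tetratricopeptide repeats. Ifit2 had 45.3, 41.4 and 40.9 TPM in DKO 7, 8 and 9, against 11.0, 11.0 and 12.1 TPM in WT 4, 5 and 6. Both groups were tight, which set Ifit2 apart from the other genes: its SD was 2.39 TPM around 42.6 TPM in DKO and 0.660 TPM around 11.4 TPM in WT. The log2 difference was 1.81 (with SE 0.09; limma with BH, adjusted p = 5.49e-04), the smallest p of the 9, and stayed between 1.77 and 1.86 with adjusted p (limma with BH) up to 0.00688 when 1 library was left out. Ifit3 had 33.8, 24.9 and 19.8 TPM in DKO, against 8.71, 6.61 and 10.5 TPM in WT. The groups did not overlap, and the log2 difference of Ifit3 was 1.49 (with SE 0.23; limma with BH, adjusted p = 0.0122), called in all 6 fits that left out 1 library (up to 0.0462).

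Ifit1, which binds viral RNA with an incompletely methylated cap, had 23.0, 13.3 and 13.1 TPM in DKO 7, 8 and 9, against 6.44, 7.89 and 6.07 TPM in WT 4, 5 and 6. DKO 7 stood above the other DKO libraries, which were close to each other and still above all WT libraries. The log2 difference of Ifit1 was 1.12 (with SE 0.23; limma with BH, adjusted p = 0.0283). The call was lost without WT 4 (limma with BH, adjusted p = 0.0779), WT 5 (0.0548), WT 6 (0.0861) or DKO 8 (0.059), and held without DKO 7 (0.0383) and DKO 9 (0.0477).

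Near-copies of the IFIT genes limit how finely the locus can be read. Ifit3b, a neighbouring copy of Ifit3, had 13.8, 7.29 and 6.24 TPM in DKO and 2.86, 3.05 and 2.29 TPM in WT. In the GENCODE M21 transcripts, 61.8% of the distinct stretches of 31 bases of Ifit3 also occur in Ifit3b, so reads from them are divided between the genes by estimate. Summed, Ifit3 and Ifit3b came to 47.5, 32.1 and 26.1 TPM in DKO and to 11.6, 9.66 and 12.8 TPM in WT, a ratio of 3.10, close to the 3.03 of Ifit3 alone. Ifit1 shares 10.5% of its stretches with other genes, most of them with Ifit1bl2, and Ifit2 shares none. Ifit3b rose (log2 difference 1.37, SE 0.28; limma with BH, adjusted p = 0.0286), as did Ifit1bl2 (0.92, SE 0.22; limma with BH, adjusted p = 0.0435). Ifit1bl1 had 7.67, 8.88 and 10.5 TPM in DKO and 7.64, 6.41 and 5.72 TPM in WT and was not called (limma with BH, adjusted p = 0.177). The Ifit3b call was lost without any 1 of WT 4, WT 5, WT 6 and DKO 8, with adjusted p (limma with BH) up to 0.0861. That of Ifit1bl2 held only without DKO 7 (0.0447) and reached 0.13 without DKO 8.

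Oasl2 (chromosome 5, 114896926 to 114912245), an oligoadenylate synthetase-like protein with ubiquitin-like repeats, had 15.1, 16.8 and 11.7 TPM in DKO 7, 8 and 9, against 8.63, 4.63 and 5.79 TPM in WT 4, 5 and 6. It was the only one of the 9 whose highest value was in DKO 8 and not in DKO 7. The log2 difference was 1.10 (with SE 0.23; limma with BH, adjusted p = 0.0298). The Oasl2 call was lost without WT 5 (limma with BH, adjusted p = 0.0691), WT 6 (0.0873), DKO 7 (0.0906) or DKO 8 (0.0964). Its paralog Oasl1 lay at 2.94, 4.97 and 2.65 TPM in DKO and 1.64, 1.06 and 1.73 TPM in WT and was not called (limma with BH, adjusted p = 0.0791).

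Rsad2 (chromosome 12, 26442743 to 26456452) encodes viperin, a radical S-adenosylmethionine enzyme that makes a chain-terminating nucleotide. It had 28.5, 15.8 and 13.4 TPM in DKO 7, 8 and 9, against 13.9, 18.4 and 14.6 TPM in WT 4, 5 and 6. DKO 7 was the highest library, while DKO 8 and DKO 9 lay within or below the WT range. The log2 difference was 0.22 (with SE 0.27; 95% interval -0.42 to 0.86; limma with BH, adjusted p = 0.66), which does not exclude a rise smaller than that upper bound. Without DKO 7 it was -0.089 (limma with BH, adjusted p = 0.778). Cmpk2, the neighbouring gene with which Rsad2 is often induced, was 9.41 ± 1.86 TPM in DKO and 6.60 ± 2.00 TPM in WT and was not called either (limma with BH, adjusted p = 0.245). In WT hearts Rsad2 had the highest level of the 9.

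Isg15 (chromosome 4, 156199424 to 156200818), the ubiquitin-like modifier, had 22.7, 17.8 and 11.8 TPM in DKO 7, 8 and 9, against 6.34, 7.36 and 7.27 TPM in WT 4, 5 and 6. The WT libraries were close together, and the lowest DKO library lay above them all. The log2 difference of Isg15 was 1.16 (with SE 0.23; limma with BH, adjusted p = 0.0246). This call was kept only without DKO 9 (limma with BH, adjusted p = 0.0161) and was lost without WT 4 (0.0705), WT 5 (0.0603), WT 6 (0.0684), DKO 7 (0.0557) or DKO 8 (0.0823). Of its distinct stretches of 31 bases, 12.8% occur in other annotated transcripts as well.

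Usp18 (chromosome 6, 121245906 to 121270917), the protease that strips ISG15 from proteins and also blocks signalling at the interferon receptor, had 16.2, 12.6 and 9.73 TPM in DKO 7, 8 and 9. It had 3.50, 1.72 and 4.86 TPM in WT 4, 5 and 6. The groups did not overlap, and the ratio was 3.83, with a log2 difference of 1.71 (with SE 0.31; limma with BH, adjusted p = 0.0208). The Usp18 call was lost without WT 4 (limma with BH, adjusted p = 0.0518), DKO 7 (0.0676) or DKO 8 (0.0691). Its exons overlap exons of Gm44148 on the opposite strand.

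ISG15 is attached by the activating enzyme Uba7, the conjugating enzyme Ube2l6 and the ligases Herc6 and Trim25. Of these, 0 of 4 were called, against 10.7% of all genes tested, and 3 of 4 had an unadjusted p under 0.05 (limma), against 27.0%. A list of 4 is too short to be told from any other genes by these counts. Herc6, the main ISG15 ligase of mice, had 10.4, 8.37 and 6.00 TPM in DKO and 4.67, 4.01 and 4.51 TPM in WT (limma with BH, adjusted p = 0.0605, and 0.0389 without DKO 9). Uba7 had 35.2 ± 12.2 TPM in DKO and 22.7 ± 2.52 TPM in WT (limma with BH, adjusted p = 0.17), and Trim25 30.1 ± 1.23 TPM in DKO and 23.9 ± 3.79 TPM in WT (limma with BH, adjusted p = 0.141). Ube2l6 had 42.3, 26.8 and 16.6 TPM in DKO and 24.0, 53.7 and 26.6 TPM in WT, with groups that overlapped widely.

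Ifi44 (chromosome 3, 151730922 to 151749910), an interferon-induced cytoplasmic protein, was the least abundant of the 9 in both groups. It had 8.97, 7.84 and 5.94 TPM in DKO 7, 8 and 9, against 2.77, 3.00 and 4.11 TPM in WT 4, 5 and 6, so that its groups did not overlap. The log2 difference of Ifi44 was 0.99 (with SE 0.20; limma with BH, adjusted p = 0.0267). The call was lost without WT 4 (limma with BH, adjusted p = 0.0755), WT 5 (0.0729), DKO 7 (0.0811) or DKO 8 (0.0884). Its paralog Ifi44l was listed at 0 in 5 libraries and at 0.380 TPM in WT 4, and was not tested.

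Ordered by mean level, the genes ran Ifit2, Irf7, Ifit3, Rsad2, Isg15, Ifit1, Oasl2, Usp18 and Ifi44 in DKO hearts, and Rsad2, Ifit2, Ifit3, Irf7, Isg15, Ifit1, Oasl2, Usp18 and Ifi44 in WT hearts. In DKO the ranges over libraries separated Ifit2 from Irf7 and Usp18 from Ifi44, and the ranges of all other neighbours in the order overlapped. In WT they separated Rsad2 from Ifit2 and Ifit2 from Ifit3, and no other neighbours. Rsad2 thus stood first in WT hearts, at 15.6 ± 2.39 TPM, and at rank 4 in DKO hearts, at 19.2 ± 8.13 TPM (SD, n = 3 each).

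The DKO libraries differed from each other in the same way for most of these genes. DKO 7 was the highest library for 8 of the 9, against 11.1% of all genes tested, and DKO 9 was the lowest DKO library for all 9, against 25.9% of all genes tested. On the log2(TPM + 1) scale the mean over the 9 genes lay 1.61, 1.26 and 0.94 above the WT mean in DKO 7, 8 and 9, and the WT libraries lay within -0.11 to 0.09 of it. The spread within DKO was uneven across genes: DKO 7 over DKO 9 was 1.11 for Ifit2, 1.29 for Oasl2 and 1.93 for Isg15, and reached 2.13 for Rsad2.

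**Figure D2:**
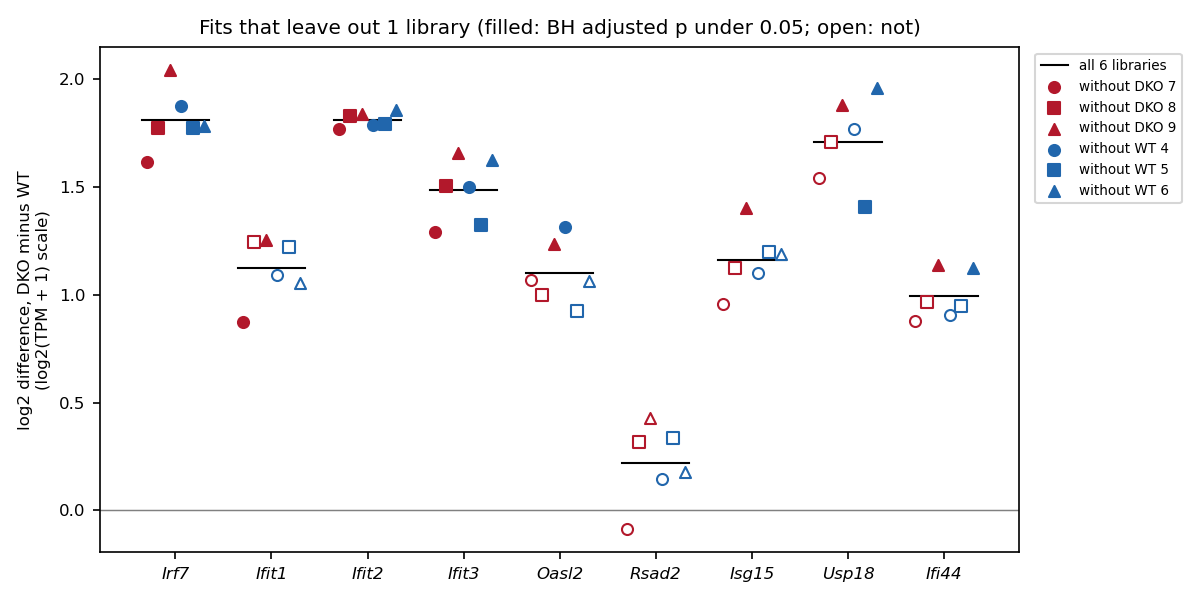
Log2 difference of DKO against WT (DKO minus WT, in log2(TPM + 1)) for each of the 9 genes with all 6 libraries (black line) and without each library in turn (red: a DKO library left out; blue: a WT library left out), filled where the BH adjusted p was under 0.05. Irf7, Ifit2 and Ifit3 are filled throughout, and Rsad2 is never filled and crosses 0 without DKO 7.

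Of the 8 calls, 3 (Irf7, Ifit2 and Ifit3) held in all 6 fits that left out 1 library, as the plot of left-out libraries shows, and the number called in those fits ran from 3 without DKO 8 to 8 without DKO 9. Without DKO 7, 4 genes were called, Ifit1 in addition to those 3. Among libraries with Y-linked transcripts, DKO 9 alone against the 3 WT libraries gave log2 differences of 1.76 for Ifit2, 1.37 for Usp18, 1.35 for Irf7 and 1.14 for Ifit3. They were 0.86 for Ifit1, 0.83 for Oasl2, 0.70 for Ifi44, 0.68 for Isg15 and -0.20 for Rsad2. The DKO arm of that fit is a single library with no spread of its own, so only the differences are given. With all 6 libraries and a term for Y-linked transcripts the differences were the same by construction. DKO 7 and DKO 8 were the only libraries without those transcripts, so the contrast is again DKO 9 against WT. Among libraries with Hbb-bs above 100 TPM, a limit set after seeing the data, DKO 7 alone was compared with the 3 WT libraries. The differences lay between 0.84 for Rsad2 and 2.20 for Irf7. Here too the DKO arm is a single library with no spread of its own, and it is the library whose genotype tag says WT. With library 7 counted as WT by its genotype tag, 0 of the 9 were called (limma) and 0 had an unadjusted p under 0.05, and 1 gene was called over the whole table. In that fit 1439 of all 14541 genes tested had an unadjusted p under 0.05 (limma).

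Interferon ligands themselves were at the limit of the table. Of 21 interferon genes, 17, among them Ifnb1, were listed at 0 in all 6 libraries, and none reached 1 TPM. Values above 0 were found only in DKO libraries, for Ifna9 in DKO 7 (0.885 TPM) and for Ifna5 (0.448 TPM), Ifna14 (0.448 TPM) and Ifng (0.319 TPM) in DKO 9. Values this low were not tested, and without read counts it is not known how many reads they rest on.

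The receptors were measured well above the ligands. Of 6 receptor genes 0 were called, against 10.7% of all genes tested, and 0 had an unadjusted p under 0.05 (limma), against 27.0%. A list of 6 is too short to be told from other genes by these counts. The median log2 difference of the receptor genes was 0.09. Ifnar1 had 50.2 ± 4.06 TPM in DKO and 47.1 ± 0.310 TPM in WT, and Ifnar2 47.4 ± 4.25 TPM in DKO and 42.0 ± 6.78 TPM in WT. The 95% intervals of the log2 difference were -0.11 to 0.28 for Ifnar1 and -0.14 to 0.50 for Ifnar2. The subunits of the interferon gamma receptor, Ifngr1 and Ifngr2, had 58.9 ± 3.14 and 234 ± 20.2 TPM in DKO and 54.9 ± 4.94 and 261 ± 6.28 TPM in WT. Ifnlr1 and Il10rb, which form the receptor of type III interferons, had 4.75 ± 0.962 and 157 ± 9.98 TPM in DKO and 4.70 ± 2.31 and 139.7 ± 8.52 TPM in WT.

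Among 10 kinases, STATs and interferon regulatory factors downstream of the receptors, 2 were higher and 0 lower in DKO, against 6.51% and 4.22% of all genes tested. Irf9, the DNA-binding partner of STAT factors, had 47.4, 37.1 and 33.7 TPM in DKO 7, 8 and 9, against 21.6, 20.7 and 20.4 TPM in WT 4, 5 and 6. Its log2 difference was 0.87 (with SE 0.13; limma with BH, adjusted p = 0.0116), called in all 6 fits that left out 1 library. Irf8, a factor of myeloid cells, had 12.2, 10.5 and 8.27 TPM in DKO and 5.68, 5.11 and 5.52 TPM in WT (log2 difference 0.80, SE 0.16; limma with BH, adjusted p = 0.0266), and stayed called only without DKO 9 (0.0296; up to 0.0867 in the others). Stat2 had 33.0, 25.4 and 14.9 TPM in DKO and 13.7, 10.3 and 15.9 TPM in WT (limma with BH, adjusted p = 0.141, and 0.0427 without DKO 9). Jak1, Jak2 and Tyk2, the receptor kinases, had log2 differences of 0.09, 0.02 and -0.06, with adjusted p (limma with BH) of 0.563 or more. Of 6 negative regulators 0 were called, with 2 at an unadjusted p under 0.05 (limma), shares near the 10.7% and 27.0% of all genes tested. The kinase inhibitor Socs1 had 7.83, 4.73 and 3.47 TPM in DKO and 3.09, 2.00 and 1.97 TPM in WT (limma with BH, adjusted p = 0.1).

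**Figure D3:**
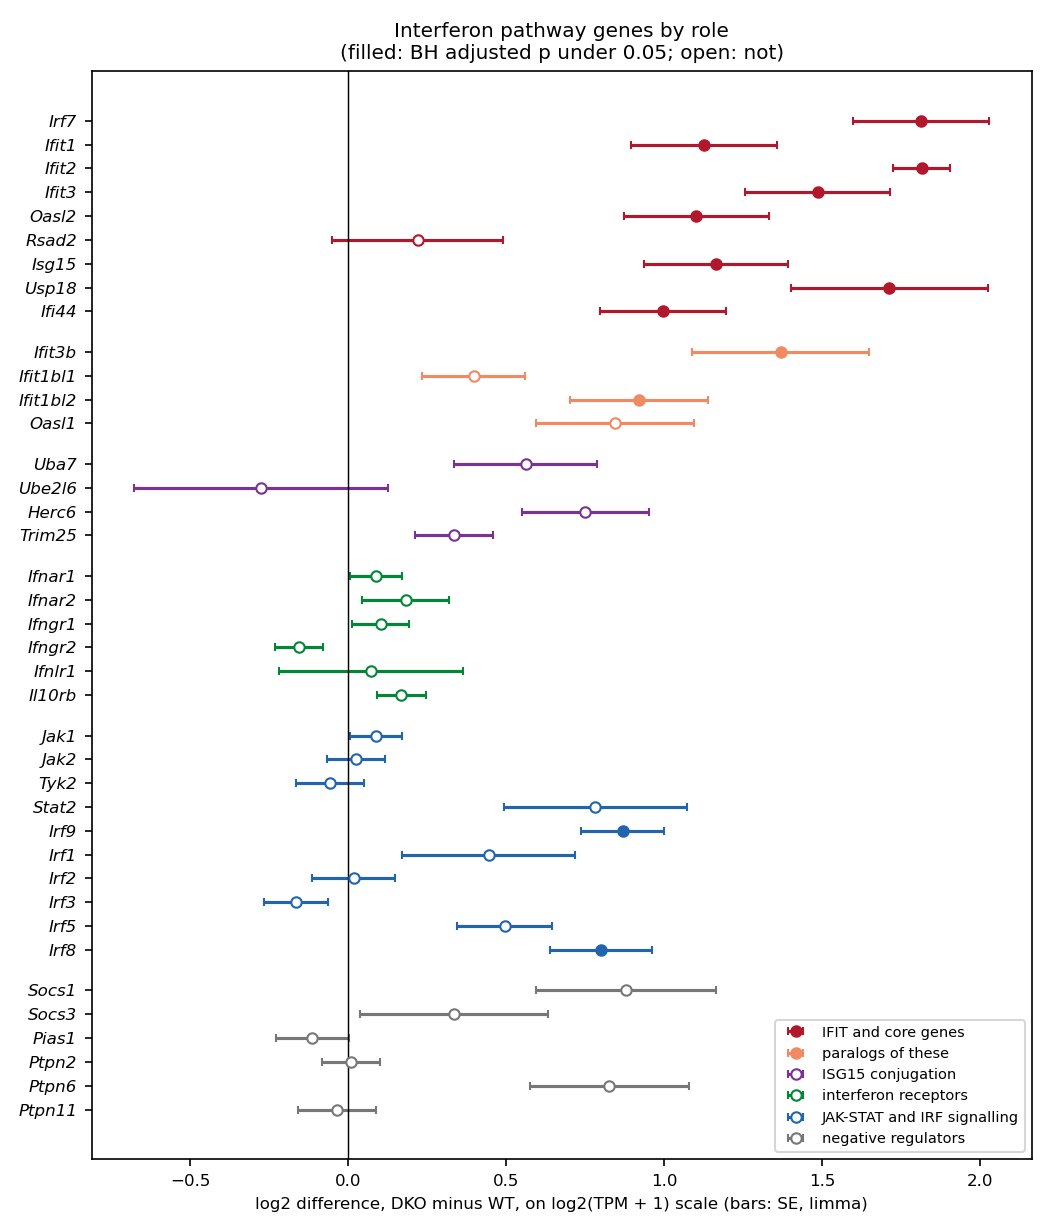
Log2 difference of DKO against WT (DKO minus WT, in log2(TPM + 1)) with SE from limma for the IFIT and core genes and of paralogs, ISG15 enzymes, receptors, signalling genes and negative regulators, filled where the BH adjusted p was under 0.05. Filled points are 8 of the 9 core genes, the paralogs Ifit3b and Ifit1bl2, and Irf9 and Irf8, and the receptors lie near 0.

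Nucleic acid sensors and their adaptors gave 2 higher and 0 lower of 17 tested, against 6.51% and 4.22% of all genes tested, and 1 of the 2, Adar, rested on the full set of libraries. Tlr7, an endosomal receptor for RNA, had 8.37, 7.38 and 6.19 TPM in DKO 7, 8 and 9, against 3.01, 2.27 and 2.41 TPM in WT 4, 5 and 6 (log2 difference 1.22, SE 0.17; limma with BH, adjusted p = 0.00913), and was called in all 6 fits that left out 1 library. Adar, which edits double-stranded RNA, had 18.1, 19.7 and 17.3 TPM in DKO and 14.7, 11.6 and 12.6 TPM in WT. The call of Adar (limma with BH, adjusted p = 0.0497) was lost in each fit without 1 library (0.0561 to 0.141). Of 37 further interferon-stimulated genes, 10 were higher and 0 lower, against 6.51% and 4.22% of all genes tested. Their median log2 difference was 0.66, against 0.03 over all genes tested, and the difference was positive in all 37. In 26 of the 37 the DKO libraries lay all above WT, against 19.1% of all genes tested. Ifi27l2a, a small interferon-induced membrane protein, had 149, 135 and 148 TPM in DKO and 73.8, 53.5 and 63.2 TPM in WT (log2 difference 1.18, SE 0.12; limma with BH, adjusted p = 0.00438), called in all 6 fits. Oas1a, Ddx60, Parp9, Rtp4 and Sp100 also rose. Ddx60, an RNA helicase-like protein, had 17.9, 11.6 and 12.2 TPM in DKO and 6.69, 5.504 and 6.82 TPM in WT, and the log2 differences of Oas1a, Parp9, Rtp4 and Sp100 were 1.21, 0.86, 1.72 and 0.43. In the order named the 5 genes had adjusted p by that test (limma with BH, adjusted p = 0.0208, 0.0223, 0.0249, 0.0278 and 0.0299). Leaving out 1 library kept these calls in 2, 3, 1, 2 and 0 of 6 fits, with adjusted p (limma with BH) up to 0.0832 for Rtp4 and 0.0833 for Sp100. Over all 84 tested pathway genes outside the 9, 16 were higher and 0 lower, against 6.51% and 4.22% of all genes tested. DKO libraries lay all above WT in 44 of the 84, against 19.1% of all genes tested. The number called among the 84 was 14 without DKO 9, 10 without DKO 7 and 6 without WT 6. It was 4 without WT 4 or DKO 8 and 3 without WT 5. These counts include genes outside the 16, namely Herc6, Stat2 and Ifitm3 without DKO 9 and Zbp1, Irgm1 and Iigp1 without DKO 7.

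**Figure D4:**
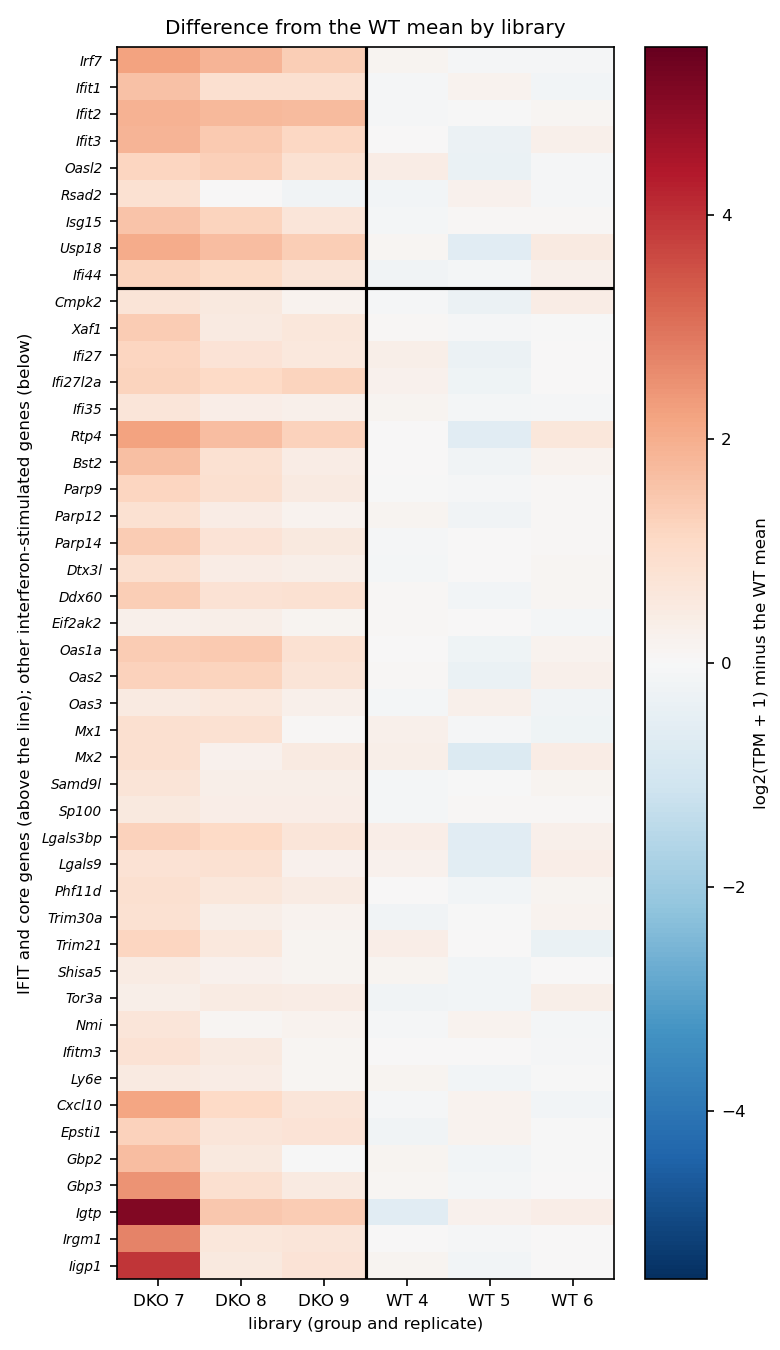
Difference of each library from the WT mean on the log2(TPM + 1) scale (colour; red higher, blue lower) for the 9 IFIT and core genes (above the line) and 37 other interferon-stimulated genes (below), with DKO libraries left and WT libraries right. DKO 7 is the darkest column, most of all in Igtp and Iigp1 at the bottom, where DKO 8 and DKO 9 are pale.

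The heat map of library differences shows that DKO 7 stood further apart in some interferon targets than in the 9 genes. In 7 of the 84 pathway genes DKO 7 was more than 2 times both other DKO libraries, against 0.956% of all genes tested, and in 0 of the 9 core genes. The 7 were Zbp1, Cxcl10, Gbp2, Gbp3, Igtp, Irgm1 and Iigp1, singled out after their values were seen. Igtp, a GTPase strongly induced by interferon gamma, had 547, 44.5 and 42.0 TPM in DKO 7, 8 and 9, against 9.60, 18.4 and 20.0 TPM in WT 4, 5 and 6. Iigp1, of the same GTPase family, had 687, 63.7 and 74.1 TPM in DKO and 48.5, 39.6 and 43.9 TPM in WT. Neither gene was called (limma with BH, adjusted p = 0.131 and 0.244). Without DKO 7, 3 of the 7 passed (limma with BH), Irgm1 (adjusted p = 0.0209), Zbp1 (0.0391) and Iigp1 (0.0446), and 4 did not, Igtp (0.0587), Gbp3 (0.0631), Cxcl10 (0.125) and Gbp2 (0.494). In that fit 815 of all 14541 genes tested were called.

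Macrophage markers differed between the groups as well, in both directions. Of 13 macrophage markers 8 were higher and 2, Cd163 and Lyve1, lower, against 6.51% and 4.22% of all genes tested. Called in all 6 fits that left out 1 library were C1qa, Ms4a7 and Cx3cr1 as higher and Cd163 and Lyve1 as lower. The number called as higher was 3 without DKO 7, 4 without DKO 8, WT 4 or WT 5, 6 without WT 6 and 7 without DKO 9. Their summed level was 469 to 627 TPM in DKO and 225 to 334 TPM in WT. The summed level of the 9 genes was 233, 182 and 148 TPM in DKO 7, 8 and 9 and 69.9, 67.9 and 72.9 TPM in WT 4, 5 and 6, and the macrophage sum took the same order over the DKO libraries, 627, 524 and 469 TPM. Monocyte markers gave 1 higher of 3 tested (of 4 listed), against 6.51% of all genes tested. Their sums were 29.1 to 42.4 TPM in DKO and 15.02 to 16.0 TPM in WT, and Chil3 was listed at 0 in all WT libraries. Neutrophil markers gave 0 called of 5 (10.7% of all genes), with 2 at an unadjusted p under 0.05 (limma, 27.0% of all genes). Neutrophil sums were 57.6 to 95.2 TPM in DKO and 39.9 to 50.7 TPM in WT. Siglech, a defining marker of plasmacytoid dendritic cells, which secrete much interferon, lay at 0.738 to 1.95 TPM in DKO and 0.391 to 1.14 TPM in WT. The 5 markers of that cell type, of which Bst2 is also counted among the interferon-stimulated genes, gave 0 called of 5 (10.7% of all genes). Of them 1 had an unadjusted p under 0.05 (limma, 27.0% of all genes), and their sums were 104 to 135 TPM in DKO and 88.3 to 103 TPM in WT. Among 6 measured T and NK cell markers, 1 could be tested and was not called. Of 4 B cell markers 2 could be tested, and 1 was lower, against 4.22% of all genes tested. It was Cd79a (log2 difference -1.13, limma with BH, adjusted p = 0.0238), a call kept only without DKO 9 (0.0464). B cell sums were 3.10 to 3.61 TPM in DKO and 4.55 to 12.3 TPM in WT. Of 5 endothelial markers 0 were higher and 2 lower, against 6.51% and 4.22% of all genes tested. Cardiomyocyte markers gave 0 higher and 2 lower of 6, against the same shares of all genes tested. The 2 were Tnni3 (called in all 6 fits that left out 1 library) and Ryr2 (in 4 of 6). Fibroblast markers gave 1 higher and 0 lower of 5, against 6.51% and 4.22% of all genes tested. The higher one was Col1a1, a call kept in 1 of 6 fits. The part of these cells in the differences of the 9 genes was not tested.

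**Figure D5:**
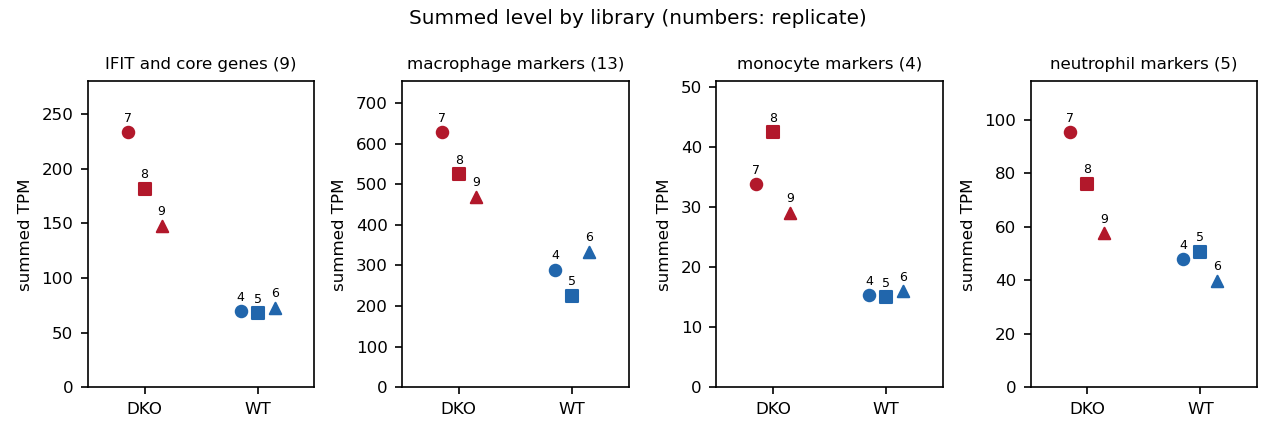
Summed TPM (vertical axes, from 0) in each library of the 9 IFIT and core genes and of macrophage, monocyte and neutrophil markers, with DKO (red) left and WT (blue) right. DKO libraries lie above WT libraries in all 4 panels, and DKO 7 is highest in all but the monocyte panel, where DKO 8 is.

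Genes with a pattern like that of the 9 were ranked by Pearson r, over the 6 libraries, with the mean of the 9 on the log2(TPM + 1) scale. Since DKO and WT form separate clusters, r mostly measures the difference between groups and is given as a description. The highest values were found for Dnajc10 (r = 0.999), a reductase of the endoplasmic reticulum, the complement gene C1qa (0.998), the G protein subunit Gng8 (0.997), Irf8 (0.995) and the fibrinogen-like gene Fgl2 (0.994). C1qa had 135, 112 and 92.3 TPM in DKO 7, 8 and 9 and 52.2, 45.5 and 55.4 TPM in WT 4, 5 and 6. Gng8 had 5.54, 4.60 and 3.16 TPM in DKO and 1.09, 0.946 and 1.40 TPM in WT. Dnajc10 followed the same order at a much smaller size, with 36.2, 34.9 and 33.1 TPM in DKO and 29.0, 28.4 and 29.2 TPM in WT, and was not called (limma with BH, adjusted p = 0.0784). Within the set, r with the mean of the other 8 genes was 0.899 or more for each gene except Rsad2, for which it was 0.473.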

How the data were processed

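Values are TPM per gene, deposited by the authors for 24525 genes and 6 libraries in a single table. The tools named per the submitters' processing notes are kallisto 0.44.0 and bcl2fastq, with build mm10. Annotation and gene summing were not given in the sources used here. Groups follow titles and source names. The 9 genes and all lists were chosen with earlier results of these data known.

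In R 4.3.3, limma 3.58.1 (lmFit, then eBayes with trend) was run for genes reaching 1 TPM in 3 or more libraries, on log2(TPM + 1), BH adjusted over 14541 genes; the fit was tested on simulated data. Named are the 9 genes, up to 6 called genes of each pathway list by smallest p, all paralogs, ISG15 enzymes and receptors, Stat2 and Irf9, and the 5 genes most like the mean. Genes outside this rule, such as Mbnl1, Mbnl2, Phrf1, Socs1, Cmpk2, the JAK kinases, single interferons and the markers, were chosen after their values were seen. An item that this rule and the lists would hold is not reported here. Gene positions and promoters are from RefSeq (GRCm38.p6, the same build as mm10), transcripts from GENCODE M21. Stretches of 31 bases were counted on the transcript strand. Python 3.11.15, scipy 1.17.1 and matplotlib 3.10.9 were used. Alternatives were pseudocount 0.1, no filter, a 5 TPM filter, median-ratio and quantile scaling, eBayes without trend, array weights, library 7 as WT, each library left out, a term for Y-linked transcripts, and libraries with them alone. The libraries with Hbb-bs above 100 TPM were added after seeing the data.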

Additional observations from a re-analysis of the deposited data

How the results depend on the processing

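With pseudocount 0.1, a 5 TPM filter, median-ratio or quantile scaling, eBayes without trend or array weights, the number of the 9 genes called as higher, their median, the calls in the pathway lists and those over all genes stayed within 1.5 times their value or within the spread of the libraries, and all 9 differences were positive. Without a filter 10 pathway genes were called, against 16. With 1 library left out, 3 to 8 of the 9 genes, 3 to 14 pathway genes and 622 to 877 genes over the whole table were called (8, 16 and 1560 with all libraries), and the median of the 9 lay between 1.07 and 1.40. Fewer libraries were fitted there, and the cause was not tested further. With library 7 as WT, 0 of the 9, 0 pathway genes and 1 gene in all were called, with a median of 0.78. There 2 of the 84 pathway genes had an unadjusted p under 0.05 (limma), against 1439 of all 14541 genes tested. A term for Y-linked transcripts left 1, 0 (15 at an unadjusted p under 0.05, limma) and 92 called, with a median of 0.86. In that fit 8 of the 9 genes and 15 of the 84 pathway genes had an unadjusted p under 0.05 (limma), against 2227 of all 14541 genes tested. Its contrast is DKO 9 against WT. The fits named next hold a single DKO library each, with no spread of its own, so their counts are not compared with the others. DKO 9 and the WT libraries, fitted alone, gave 0, 0 (18 at an unadjusted p under 0.05, limma) and 12, also with a median of 0.86. The libraries with Hbb-bs above 100 TPM gave 2, 9 and 104, with a median of 1.63. Rsad2 lay between -0.089 and 0.43 with 1 library left out, and changed sign without DKO 7 (-0.089), with the term for Y-linked transcripts (-0.20), in the libraries with those transcripts alone (-0.20) and with library 7 as WT (-0.30). The cause of these changes was not tested. No paired analysis was possible because DKO and WT libraries share no replicate number. TPM keeps no depth, so what depth limits is unknown.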
